A study of Rattus norvegicus with 9 samples.

Results

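The transcript set used for these rat CD4+ T cell libraries held 39026 transcripts that the assembler had built from the reads, and 1665 of them ran across at least 2 differently named genes of the same strand. A transcript was counted as spanning when its exons covered at least 100 bases of the exons of each of 2 reference genes whose own exons do not overlap, and when its locus, meaning a group of overlapping transcripts, had a mean of at least 1 TPM (a length-scaled abundance that sums to the same total in every library) over the 9 libraries. The 1665 spanning transcripts lay in 516 of the 13614 loci at that level. Of all assembled transcripts, 2366 touched the exons of at least 2 names by some bases. The rule used positions, names and the mean level of the locus, and no difference between groups.

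The libraries were made from blood CD4+ T lymphocytes of SD rats 8 to 10 weeks old, in 3 groups of 3 libraries. The normal group had no listed treatment, the model group was read as rats with CIA (taken to be collagen-induced arthritis, an immunization model of rheumatoid arthritis), and the combination group was CIA rats given a pair of compounds together for 4 weeks. The compounds are not named in the labels, and no group with only 1 of the compounds was part of the set. The labels do not state whether each library was 1 animal, and the p-values below speak of the spread among libraries, which may be technical. The 3 comparisons share their libraries in pairs and are not independent of each other. TPM is an estimate: where transcripts of a locus share most of their exons, the assembler divides the reads among them.

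Most mammalian genes end at a polyadenylation signal, where the nascent RNA is cut and the polymerase stops soon afterwards. When the cut is missed, transcription can run into the next gene of the same strand, and splicing can join exons of both genes, or leave the space between them as one long exon. Assembled transcripts of this shape can also arise when reads of close or overlapping genes are merged, or when copies of a gene lie side by side, and short reads do not by themselves tell these cases apart.

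In a tandem pair, genes that lie one after the other, a spanning transcript crosses the stretch just upstream of the downstream gene, within an exon or by introns. Where an intron covers that stretch, it is not part of the spliced transcript. The stretch is printed for 3 pairs that the results turn on, each with the stretch upstream of its first gene. Each is the 250 bases before the RefSeq start on assembly GRCr8. The deposited transcripts use the build rn6, so these positions are not theirs, and whether the RefSeq and deposited starts are the same base was not tested. Capitals mark matches on either strand to the letters CCAAT and GGGCGG; the letters TATAAA and TGACTCA were searched in the same way and had no match in these 6 stretches.
Gapdhs (chr1:95121056-95121305, - strand): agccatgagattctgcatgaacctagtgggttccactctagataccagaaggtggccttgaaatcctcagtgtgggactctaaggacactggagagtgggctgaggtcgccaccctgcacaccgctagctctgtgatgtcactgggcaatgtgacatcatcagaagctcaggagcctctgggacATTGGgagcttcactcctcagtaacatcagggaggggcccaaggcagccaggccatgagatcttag
Tmem147 (chr1:95106269-95106518, - strand): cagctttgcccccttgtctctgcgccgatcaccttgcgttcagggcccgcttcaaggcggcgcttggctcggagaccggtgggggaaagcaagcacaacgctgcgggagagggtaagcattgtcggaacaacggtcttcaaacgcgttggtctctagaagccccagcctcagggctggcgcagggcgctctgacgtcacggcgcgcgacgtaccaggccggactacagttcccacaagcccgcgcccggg
Ankzf1 (chr9:84136612-84136861, + strand): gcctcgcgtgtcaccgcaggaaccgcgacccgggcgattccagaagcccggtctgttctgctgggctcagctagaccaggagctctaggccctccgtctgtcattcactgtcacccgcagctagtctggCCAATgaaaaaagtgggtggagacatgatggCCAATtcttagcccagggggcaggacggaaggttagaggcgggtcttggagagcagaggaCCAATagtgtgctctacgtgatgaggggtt
Stk16 (chr9:84154035-84154284, + strand): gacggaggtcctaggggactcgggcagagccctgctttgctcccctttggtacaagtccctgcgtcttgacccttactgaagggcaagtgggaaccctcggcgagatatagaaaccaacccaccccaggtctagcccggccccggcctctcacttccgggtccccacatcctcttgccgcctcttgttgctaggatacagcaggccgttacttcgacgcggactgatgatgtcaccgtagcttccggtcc
Uxt (chrX:3679654-3679903, + strand): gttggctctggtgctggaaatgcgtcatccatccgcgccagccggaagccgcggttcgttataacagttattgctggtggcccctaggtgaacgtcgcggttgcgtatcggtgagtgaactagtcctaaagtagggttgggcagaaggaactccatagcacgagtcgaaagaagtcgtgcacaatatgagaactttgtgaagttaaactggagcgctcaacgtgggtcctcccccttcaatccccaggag
Elk1 (chrX:3693115-3693364, + strand): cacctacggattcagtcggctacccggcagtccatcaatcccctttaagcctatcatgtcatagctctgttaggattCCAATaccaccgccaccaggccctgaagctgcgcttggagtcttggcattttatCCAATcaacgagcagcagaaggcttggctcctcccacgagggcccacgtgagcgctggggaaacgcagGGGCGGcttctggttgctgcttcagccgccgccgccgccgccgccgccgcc
CCAAT was in the stretches of Gapdhs, Ankzf1 and Elk1, with 1, 3 and 2 matches, and in 34.0% of all 33469 RefSeq promoters at this length. GGGCGG was in that of Elk1 and in 30.5% of all. The 3 stretches of Tmem147, Stk16 and Uxt held no match, which says only that these letters are not in these windows. The Tmem147 stretch was 65.6% G and C, against a median of 51.2% over all promoters. Of 1085 names at the spanned loci, 659 had a promoter entry, and the median over the 731 entries was 58.0% G and C.

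Spanning transcripts mostly joined close neighbours in a row. Of the 1665, 1495 joined genes that lie one after the other (tandem), and 170 joined a gene with another that sits inside or across its span (nested). The gap was crossed within an exon by 642 transcripts and by introns by 1023. In the tandem pairs the median gap was 1443 bases for those crossed within an exon and 10458.5 bases for those crossed by introns. Exactly 2 names were joined by 1583 transcripts. Among the 726 tandem transcripts whose intron led directly from the first gene to the next, 114 used an annotated splice donor and an annotated acceptor. At least 50% of the exon bases of both genes were covered by 929 transcripts, and 499 tandem transcripts began and ended within 100 bases of the annotated start of the first gene and the annotated end of the last.

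The closer the genes, the more often they were spanned. Among 5590 pairs of neighbouring named genes on 1 strand, both at loci of at least 1 TPM, 405 pairs (7.25%) were joined by a spanning transcript. Genes joined in this way lie in 1 locus, whose level admits both, while genes of separate loci must each reach 1 TPM. This can raise the shares spanned. The share was 25.2% (82 of 325) for gaps under 1 kb, 18.4% (134 of 728) from 1 to 5 kb, 8.83% (120 of 1359) from 5 to 20 kb, 2.74% (55 of 2008) from 20 to 100 kb and 1.20% (14 of 1170) beyond. Of the leading pairs at the 516 loci, 307 had both names in the RefSeq table, and in 237 of these no protein-coding gene lay between them on GRCr8. In 36 at least 1 did, 29 overlapped there, and in 5 the names now belong to 1 RefSeq gene.

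**Figure D1:**
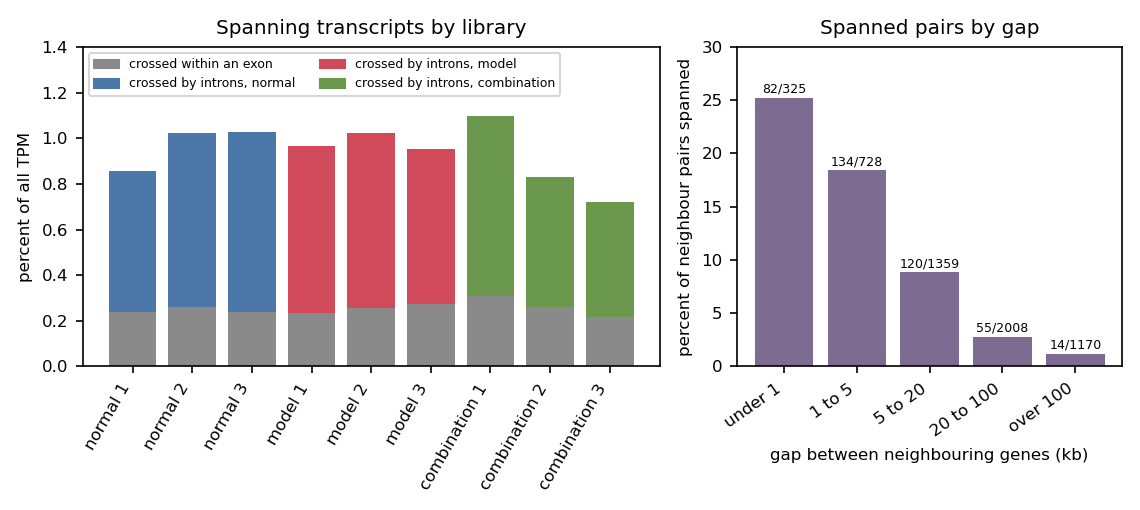
The left panel shows the percent of all TPM held by the 1665 spanning transcripts in each library, divided into transcripts that cross the gap within an exon (grey) and by introns (coloured by group). The right panel shows the percent of neighbouring gene pairs that are spanned against the gap in kb, with the counts above each bar; it falls from 25.2% under 1 kb to 1.20% beyond 100 kb.

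All spanning transcripts together held about 1 percent of TPM in every group. The share was 0.858%, 1.02% and 1.03% in the normal libraries, 0.964%, 1.02% and 0.955% in the model libraries and 1.10%, 0.829% and 0.721% in the combination libraries. The groups overlapped, and the combination libraries had both the highest and the lowest value. The means were 0.970 ± 0.0964% (SD, n = 3), 0.980 ± 0.0358% and 0.883 ± 0.194%. A two-sided exact permutation test, with 20 arrangements and a smallest possible p of 0.1, gave p = 1 for model against normal, p = 0.5 for combination against model and p = 0.6 for combination against normal. With haemoglobin, mitochondrial and ribosomal protein transcripts left out of both the spanning and the total TPM, the combination libraries, at 1.339%, 1.310% and 1.302%, lay above all model libraries (1.299%, 1.269% and 1.169%) and all normal libraries (1.20%, 1.12% and 1.21%), with an exact p = 0.1 for each, the smallest possible.

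Few single spanning transcripts were called, 1 to 3 in each comparison. With so few calls, the share called is not read as different from that of all transcripts. Of the 1665, 993 had a mean of at least 1 TPM and were tested on log2(TPM + 1) among 36340 transcripts with limma, adjusted by Benjamini-Hochberg at 0.05. Between model and normal 1 spanning transcript was called (0.101%), against 0.201% of all transcripts tested. Between combination and model 2 were called (0.201%, beside 0.127% of all). Between combination and normal 3 were called (0.302%, beside 0.173% of all). The share of the locus was tested as log2 odds among 984 spanning and 30348 transcripts in all. In the same order 1, 2 and 2 were called (0.102%, 0.203% and 0.203%, beside 0.089%, 0.135% and 0.102% of all). With median-ratio scaling the level calls were 8, 6 higher and 2 lower, between model and normal, and 5, 4 higher and 1 lower, between combination and model. The share called of all transcripts was not computed with this scaling. The unadjusted p lay under 0.05 for 141, 153 and 124 of the 993 in level, beside 6196, 5958 and 5707 of all 36340 transcripts. The median log2 difference of the 993 was 0.02, 0.04 and 0.11, beside 0.02, 0.03 and 0.06 over all transcripts.

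Summed per locus, the spanning TPM gave more calls, a fit that was added after the data were seen. Of 439 loci with a mean spanning TPM of at least 1, 19 were called between model and normal (12 higher, 7 lower), 15 between combination and model (8 higher, 7 lower) and 11 between combination and normal (7 higher, 4 lower). Over all 14026 loci and sums in the fit, 4.78% were called between model and normal (2.76% higher, 2.02% lower), 4.43% between combination and model (2.37% higher, 2.06% lower) and 4.21% between combination and normal (2.37% higher, 1.84% lower). The median log2 difference of the 439 sums was 0.05, 0.07 and 0.15, beside -0.01, 0.03 and 0.04 over everything in the fit. With median-ratio scaling the model against normal split was 17 higher and 17 lower, and the share over everything in the fit was not computed. The whole TPM of the 516 loci, spanning or not, was called in 27, 22 and 18 loci, beside 5.35%, 5.01% and 4.86% of all 13614 loci. Model against normal gave 25 higher and 2 lower loci (3.08% and 2.27% of all loci). With median-ratio scaling it gave 47 higher and 9 lower. Without model replicate 2 it gave 60 and 37, and the other fits without 1 library gave 0 to 7 higher and at most 1 lower. Combination against model gave 6 higher and 16 lower (2.67% and 2.34% of all). Combination against normal gave 14 higher and 4 lower (2.73% and 2.14% of all), or 33 and 18 with median-ratio scaling. The share called of all loci was not computed with this scaling or without 1 library. Of the 19 loci called for their spanning TPM between model and normal, 5 were also called for the whole locus in the same direction and 1 in the opposite direction, Gapdhs–Tmem147.

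At Gapdhs–Tmem147 most TPM lay in the annotated Tmem147 transcript in normal and in spanning transcripts in the other groups. Gapdhs encodes the glycolytic glyceraldehyde dehydrogenase of sperm, and Tmem147 encodes a membrane protein of the endoplasmic reticulum; the genes lie 237 bases apart on the minus strand at chr1:89140184-89194602 of rn6. The annotated Tmem147 transcript stood at 42.4, 36.9 and 35.9 TPM in the normal libraries, at 1.11, 4.16 and 0.638 in the model libraries and at 3.32, 1.70 and 7.95 in the combination libraries. Every normal library lay far above the other 6. No annotated Gapdhs transcript listed was above 0.152 TPM in any library.

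The leading spanning transcript, MSTRG.718.1, moved the other way. It has all exons of Tmem147 with a first exon that begins 766 bases before the annotated start, in an intron of Gapdhs, and runs across the last 2 Gapdhs exons, plus an exon of 21 bases that begins 37788 bases past the annotated end. MSTRG.718.1 shares its Tmem147 exons with the annotated transcript, so the TPM of each depends on how the assembler divided the reads. MSTRG.718.1 read 1.53, 2.02 and 0.977 TPM in normal, 16.6, 17.0 and 17.6 in model and 12.8, 15.8 and 8.57 in combination. No normal library came near the other groups, and the model libraries lay above the combination libraries. The log2 difference was 2.87 (SE 0.257, limma adjusted p = 0.0108) for model against normal and 2.40 (SE 0.257, adjusted p = 0.0213) for combination against normal. The first call held without any 1 library (adjusted p up to 0.0391); the second was lost without normal replicate 1, normal replicate 3 or combination replicate 1 (adjusted p up to 0.0758, without the last).

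MSTRG.718.3, which has 16 exons, starts at the annotated Gapdhs start and ends at the annotated Tmem147 end, read 1.28, 1.50 and 1.45 TPM in normal, 4.47, 4.91 and 7.99 in model and 2.86, 1.32 and 2.97 in combination. It was high in the model libraries alone, and combination overlapped normal. The 3 spanning transcripts together held 9.73 ± 1.47% (SD, n = 3) of the locus in normal, 92.3 ± 6.71% in model and 78.4 ± 15.8% in combination. Their sum rose by 2.30 (SE 0.181, limma adjusted p = 0.00247) in model and by 1.69 (SE 0.181, adjusted p = 0.00877) in combination on the log2 scale over normal, and these calls held without any 1 library. The whole locus fell by 0.68 (SE 0.140, adjusted p = 0.0297) in model and by 1.04 (SE 0.140, adjusted p = 0.0128) in combination. The first fall was lost in 5 of the 6 fits that left out 1 library, all but that without model replicate 2 (adjusted p up to 0.113, without normal replicate 2). The second was lost without normal replicate 1 or 2 or combination replicate 1 or 2 (up to 0.0679, without normal replicate 1).

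**Figure D2:**
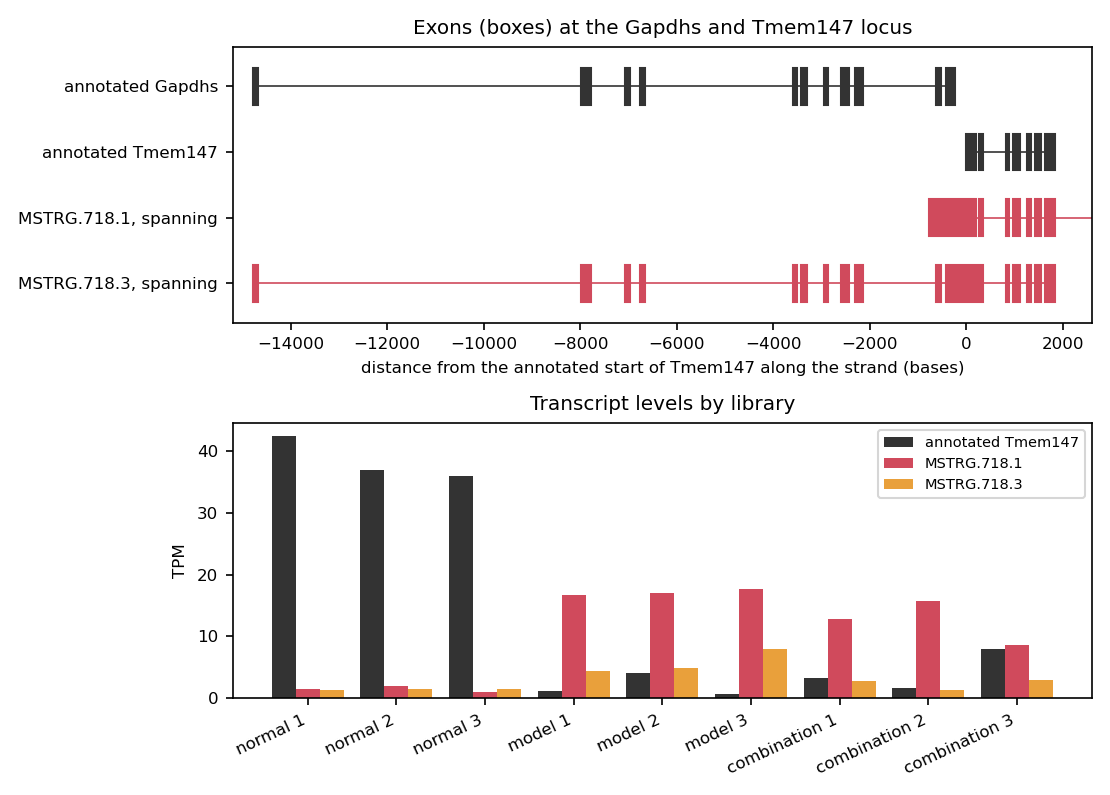
The upper panel draws the exons of annotated Gapdhs and Tmem147 and of 2 spanning transcripts, by distance in bases from the annotated Tmem147 start along the strand; the line of MSTRG.718.1 runs on to an exon beyond the right edge. The lower panel shows TPM by library: annotated Tmem147 is 35.9 to 42.4 in the normal libraries and under 8 in the other 6, where MSTRG.718.1 is 8.57 to 17.6.

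Several loci had little or no TPM outside the spanning form, and Kdm6b–Tmem88 was one of them. Kdm6b encodes a demethylase of histone H3 lysine 27, known as an inducible gene of activated immune cells, and Tmem88 encodes a membrane protein that restrains Wnt signalling; 1573 bases separate them at chr10:55998376-56028488. The 2 spanning transcripts, which cross the gap within an exon, held 95.4% of the locus.

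The summed spanning level of Kdm6b–Tmem88 was 10.2, 7.51 and 10.2 TPM in normal, 65.4, 44.6 and 190.0 in model and 31.4, 16.9 and 17.0 in combination. The 3 groups did not overlap, with model highest and model replicate 3 far above replicates 1 and 2. The rise in model over normal was 3.03 on the log2 scale (SE 0.468, limma adjusted p = 0.0181). The difference between combination and model, -1.93 (SE 0.468), had an adjusted p of 0.0509, and for the whole locus it was called, at -1.88 (SE 0.455, adjusted p = 0.0476). The rise was lost without any 1 of the normal libraries (up to 0.0840, without replicate 2), and the fall of the locus was lost in 5 of 6 such fits, all but that without model replicate 2, with adjusted p up to 0.140 without combination replicate 2.

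F2r–7SK is a nested pair. F2r encodes the thrombin receptor PAR1, and 7SK is the small nuclear RNA that holds back the elongation factor P-TEFb; the annotated 7SK copy lies within the span of F2r at chr2:26117545-26135340. The spanning transcript, MSTRG.8855.1, has 2 exons, covers 89.0% of F2r exon bases and the whole 7SK copy. It stood at 0.391, 0.549 and 1.22 TPM in normal, at 8.69, 6.17 and 19.15 in model and at 2.17, 1.79 and 1.10 in combination. All 3 model libraries were above the others, and normal and combination overlapped. The spanning level rose by 2.73 (SE 0.368, limma adjusted p = 0.0125) in model over normal, a call lost without normal replicate 2 (0.0623). It fell by 2.08 (SE 0.368, adjusted p = 0.0292) in combination against model, lost in 5 of 6 fits that left out a library, all but that without model replicate 2 (adjusted p up to 0.0798, without combination replicate 2). The whole locus rose by 3.65 in model over normal (SE 0.501, adjusted p = 0.0116), also lost without normal replicate 2 (0.0591), and the spanning share was 54.1 ± 2.81% (SD, n = 3) in normal, 38.1 ± 11.0% in model and 52.0 ± 1.99% in combination.

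AABR07050283.2–Rcc2 was also highest in model. Rcc2 is a regulator of chromosome condensation that binds the mitotic spindle, and the first name is a clone-style identifier of the annotation. The spanning transcript read 14.4, 11.8 and 12.4 TPM in normal, 77.6, 33.8 and 124.0 in model and 18.9, 19.8 and 14.0 in combination. Model lay above both other groups, which overlapped. The log2 differences were 2.34 (SE 0.388, limma adjusted p = 0.0217) for model against normal and -1.93 (SE 0.388, adjusted p = 0.0354) for combination against model. The first call was lost without any 1 of the normal libraries or without model replicate 1 (adjusted p up to 0.0900, without normal replicate 2). The second was lost in 5 of 6 such fits, all but that without model replicate 2 (up to 0.0962, without combination replicate 2). Its share of the locus stayed between 17.9% and 24.6% in the 9 libraries.

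Of the genes on the activation and NF-kB list, 3 lay at spanned loci, Relb, Tnfrsf4 and Nfkb1. Relb, a subunit of NF-kB in the non-canonical pathway, is followed after 1716 bases by Clasrp, a splicing regulator, at chr1:80491480-80545671. MSTRG.534.10, whose 26 exons run through both, read 4.17, 2.28 and 3.23 TPM in normal, 17.2, 10.3 and 14.6 in model and 14.6, 9.18 and 6.61 in combination. Every normal library lay below the other 6. The rises over normal were 1.83 (SE 0.299, limma adjusted p = 0.0208) in model and 1.36 (SE 0.299, adjusted p = 0.0432) in combination. The first was lost without normal replicate 2 or 3 or model replicate 1 or 3, and the second in all fits without 1 library but that without combination replicate 3 (adjusted p up to 0.0900 and 0.149, both without normal replicate 2). This form held 2.91 ± 0.742% (SD, n = 3) of the locus in normal, 5.55 ± 0.952% in model and 5.79 ± 0.893% in combination. The whole locus rose in model by 1.17 (SE 0.212, adjusted p = 0.0230), lost in all but 1 of 6 such fits, that without model replicate 2 (up to 0.0914).

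Tnfrsf4, which encodes the costimulatory receptor OX40, had almost no transcript of its own. Its annotated form averaged 0.159 ± 0.154 TPM (SD, n = 3) in normal, 0.185 ± 0.126 in model and 0.0387 ± 0.00471 in combination. The 6 spanning transcripts that join it to Sdf4, a calcium-binding protein of the Golgi 3163 bases upstream, summed to 7.97, 16.7 and 15.5 TPM in normal, 7.64, 22.4 and 7.86 in model and 31.1, 26.6 and 21.3 in combination. The combination libraries were above all normal libraries and overlapped model, and no comparison passed (limma adjusted p = 0.805, 0.114 and 0.167). The annotated Sdf4 transcript was at 91.5 TPM in normal replicate 1 and at 98.6 and 99.2 TPM in model replicates 1 and 3, and between 7.75 and 15.0 TPM in the other 6 libraries.

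Nfkb1 encodes the p105 precursor of NF-kB, and a U6 small nuclear RNA copy lies 470 bases after it. The whole locus was at 96.5, 76.7 and 73.6 TPM in normal, 159.2, 122.1 and 258.8 in model and 302.2, 221.9 and 164.9 in combination. All combination and model libraries were above normal, and those of combination and model overlapped. Combination was above normal by 1.44 (SE 0.292, limma adjusted p = 0.0337), lost in 5 of 6 fits without 1 library, all but that without combination replicate 3 (up to 0.118, without normal replicate 2). The spanning transcripts summed to 1.31 to 2.18 TPM, 1.04% of the locus on average, and no comparison of them passed.

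**Figure D3:**
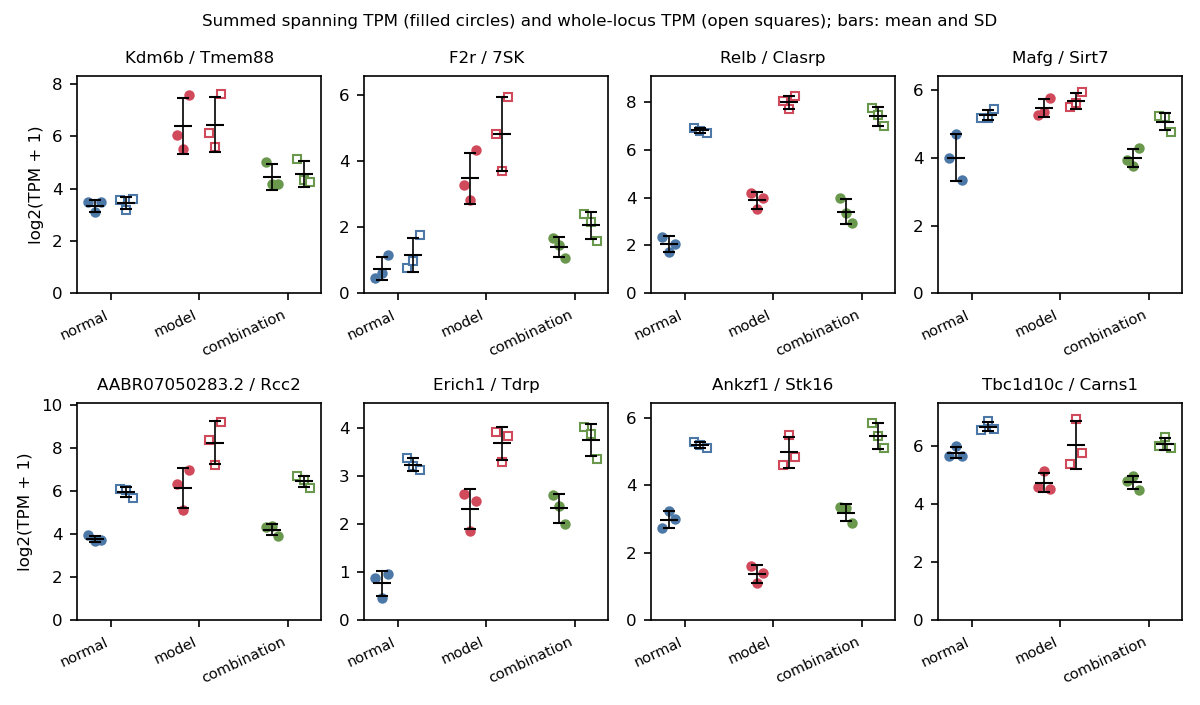
Summed spanning TPM (filled circles) and whole-locus TPM (open squares) at 8 loci, as log2(TPM + 1) by group, with 1 point a library and the mean and SD of the 3. At Kdm6b–Tmem88 circles and squares nearly coincide, at Relb–Clasrp the circles lie far below the squares, and at Ankzf1–Stk16 the model circles lie below those of both other groups.

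Mafg–Sirt7 and Erich1–Tdrp had higher spanning levels in model than in normal, with no call for the locus as a whole. Mafg is a small Maf transcription factor, and Sirt7, 3419 bases on, is a nuclear sirtuin deacylase. Their spanning transcripts summed to 15.0, 25.2 and 9.17 TPM in normal, 38.0, 40.0 and 53.9 in model and 14.4, 12.7 and 18.6 in combination. Model lay above both other groups, which overlapped. The log2 differences were 1.45 (SE 0.318, limma adjusted p = 0.0385) and, for combination against model, -1.47 (SE 0.318, adjusted p = 0.0428), while the locus as a whole passed in neither (0.179 and 0.0784). Both calls were lost in 5 of 6 fits without 1 library, all but that without model replicate 2 (adjusted p up to 0.119, without model replicate 3, and 0.130, without combination replicate 2).

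Erich1 and Tdrp lie 61618 bases apart at chr16:80601973-80755415, and their spanning transcript uses an annotated donor and an annotated acceptor. Tdrp is a nuclear factor of the testis. The transcript read 0.850, 0.389 and 0.944 TPM in normal, 5.20, 2.60 and 4.60 in model and 5.12, 4.18 and 3.04 in combination. Every normal library lay below the other 6, and its share of the locus was 8.65 ± 3.75% (SD, n = 3) in normal, 33.8 ± 3.62% in model and 32.4 ± 1.71% in combination. The level was higher than normal by 1.55 (SE 0.263, limma adjusted p = 0.0232) in model and 1.56 (SE 0.263, adjusted p = 0.0277) in combination, calls lost in 5 of 6 fits each without 1 library, all but that without model replicate 2 and that without combination replicate 3 (adjusted p up to 0.0925 and 0.107, both without normal replicate 2). For its share of the locus the adjusted p was 0.103 and 0.124.

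Uxt–Elk1 had 2 kinds of spanning transcript, and the 1 of each kind printed here differed in the order of the groups. Uxt encodes a prefoldin-like cofactor, Elk1 a transcription factor of the ETS family, and Cfp, further on, the complement factor properdin; the locus is chrX:1275612-1316682. MSTRG.17798.2 and MSTRG.17798.4 join Uxt to Elk1 and stop at the Elk1 end. The latter read 1.24, 2.50 and 1.89 TPM in normal, 6.49, 4.46 and 6.19 in model and 0.564, 0.723 and 1.05 in combination. Its groups did not overlap, with model highest and combination lowest. The fall from model to combination was -1.91 (SE 0.243, limma adjusted p = 0.0422), lost in 5 of 6 fits without 1 library, all but that without model replicate 2 (adjusted p up to 0.110, without model replicate 3). Model against normal gave 1.23 (SE 0.243, adjusted p = 0.0779).

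MSTRG.17798.1 and MSTRG.17798.3 pass Elk1 and end at the annotated Cfp end. The latter read 1.90, 1.00 and 1.48 TPM in normal, 1.98, 1.57 and 2.26 in model and 4.22, 4.37 and 3.98 in combination. MSTRG.17798.3 was highest in the combination libraries, where MSTRG.17798.4 was lowest. Values of MSTRG.17798.1 and MSTRG.17798.2 are not printed, so these orders are not given for each kind as a whole. Neither form that runs on was called. Summed over all 4, spanning TPM was 5.75, 6.87 and 7.07 in normal, 15.3, 11.0 and 15.6 in model and 11.1, 10.4 and 8.07 in combination, above normal in model by 0.97 (SE 0.193, limma adjusted p = 0.0308). That call was lost in 5 of 6 fits without 1 library, all but that without model replicate 2 (adjusted p up to 0.108, without normal replicate 2).

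At Birc3–Birc2 and Rplp2–LOC100911575 spanning forms were listed at 0 in some libraries and held a part of the locus in others. Birc3 and Birc2 are paralogs that encode the inhibitors of apoptosis cIAP2 and cIAP1, 14826 bases apart. MSTRG.16068.3 was listed at 16.9, 0 and 0 TPM in normal, at 27.6, 30.5 and 31.9 in model and at 0 in all combination libraries. Combination against model gave a limma adjusted p of 0.0310, lost in 5 of 6 fits without 1 library, all but that without model replicate 2 (up to 0.0887, without combination replicate 2). The whole locus, by contrast, rose over normal in both, by 1.63 (SE 0.215, adjusted p = 0.0110) in model and 1.37 (SE 0.215, adjusted p = 0.0220) in combination. The annotated Birc2 transcript was at 24.4 and 23.1 TPM in the 2 normal libraries in which the spanning form was at 0, at 0.260 in normal replicate 1 and under 0.1 in the other 6 libraries. The locus call was lost for model without normal replicate 2 (0.0573), and for combination without normal replicate 2 or 3 or combination replicate 1 or 2 (up to 0.0928, without normal replicate 2).

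The spanning sum of Rplp2, a ribosomal protein gene, with LOC100911575 was 0 in 5 libraries, 183 in combination replicate 2 and 1565 to 1865 in model replicates 2 and 3 and combination replicate 1. The normal libraries were all at 0, and the model and combination libraries differed among themselves. None of the 3 comparisons passed.

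**Figure D4:**
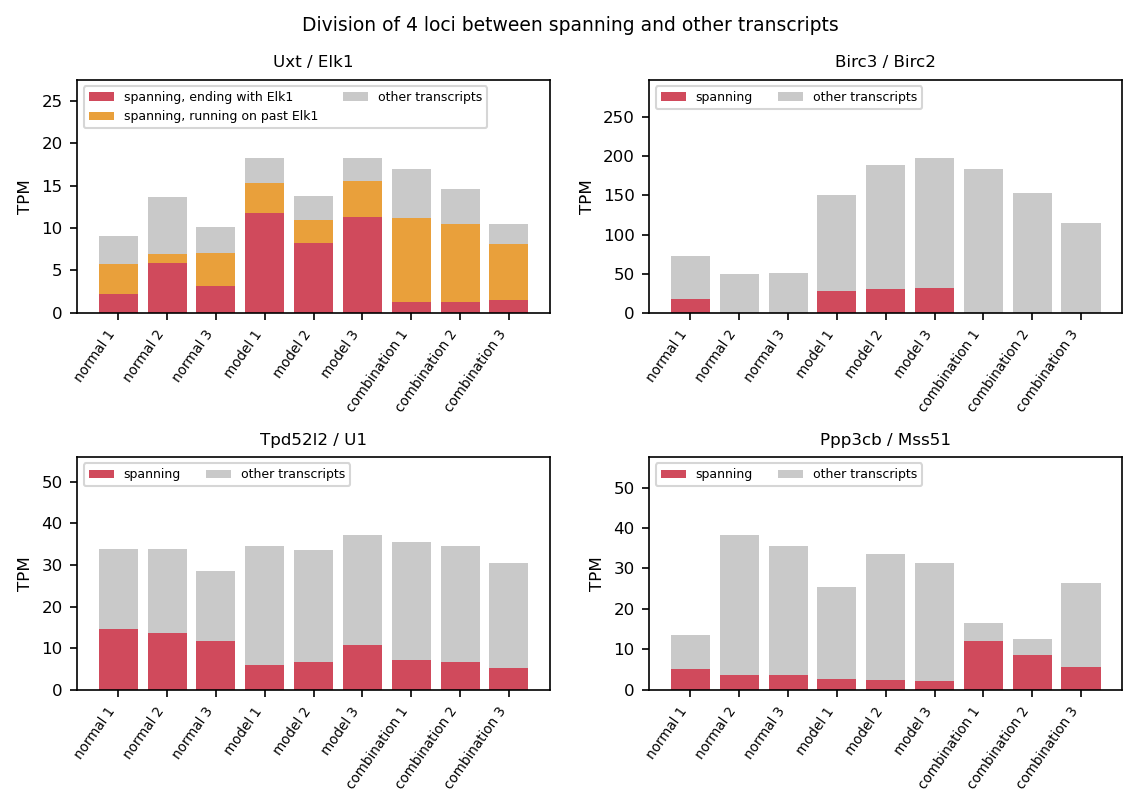
Bars show locus TPM by library at 4 loci, divided into spanning (red, and orange for Uxt–Elk1 forms that run past Elk1) and other transcripts (grey). At Birc3–Birc2 the spanning part is 0 in the combination libraries and 27.6 to 31.9 TPM in model, at Tpd52l2–U1 it is 11.7 to 14.6 TPM in normal and lower in the other 6 libraries, and at Ppp3cb–Mss51 it is 5.61 to 12.1 TPM in combination and lower in the other 6.

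Ankzf1–Stk16 and Tbc1d10c–Carns1 had lower spanning levels in model than in normal. Ankzf1 works in the quality control of stalled ribosomes, and Stk16, a membrane-anchored kinase, follows after 10482 bases at chr9:82393672-82414240. The 2 spanning transcripts, with 20 and 17 exons, start at the Ankzf1 start and end at the Stk16 end. Their sum was 5.60, 8.47 and 6.96 TPM in normal, 2.09, 1.15 and 1.63 in model and 9.15, 8.95 and 6.43 in combination. All model libraries were below the other 6, and normal and combination overlapped. The sum fell by 1.61 (SE 0.219, limma adjusted p = 0.0125) from normal to model and was 1.81 higher (SE 0.219, adjusted p = 0.0198) in combination than in model. Among the fits without 1 library, the first call was lost without normal replicate 2 (0.0685) and the second without combination replicate 2 (0.0509). The longer form, MSTRG.17478.3, was listed at 0 in all 3 model libraries and at 1.85 to 3.42 TPM in the other 6. The locus as a whole, at 23.3 to 56.6 TPM, passed in none of the comparisons.

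Tbc1d10c encodes an inhibitor of Ras and calcineurin signalling in lymphocytes, and Carns1 a carnosine synthase. Their 14 spanning transcripts summed to 49.5, 62.2 and 49.7 TPM in normal, 22.8, 34.0 and 21.9 in model and 26.7, 29.99 and 21.5 in combination. Every normal library lay above the other 6. The differences from normal were -1.03 (SE 0.208, limma adjusted p = 0.0316) in model and -1.02 (SE 0.208, adjusted p = 0.0381) in combination, the first lost in all fits without 1 library but that without model replicate 2, and the second in all 6 (adjusted p up to 0.125 and 0.138, both without normal replicate 2).

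Rnf121–Il18bp and Ppp3cb–Mss51 changed between model and combination. Il18bp encodes the soluble inhibitor of interleukin 18, and 91.1% of its locus lay in 2 transcripts that run in from the ubiquitin ligase gene Rnf121. They summed to 4.34, 5.69 and 4.80 TPM in normal, 6.69, 6.76 and 7.67 in model and 3.16, 1.98 and 2.57 in combination. The groups did not overlap, with model highest and combination lowest, and combination was below model by 1.18 (difference -1.18, SE 0.183, limma adjusted p = 0.0242). The call was lost without model replicate 3 (0.0670) or combination replicate 2 (0.0698).

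Ppp3cb encodes a catalytic subunit of calcineurin, and Mss51 a protein of muscle mitochondria. Their spanning transcripts stood at 5.07, 3.59 and 3.68 TPM in normal, 2.63, 2.53 and 2.07 in model and 12.1, 8.70 and 5.61 in combination. The groups did not overlap, with combination highest. Combination was above model by 1.47 (SE 0.254, limma adjusted p = 0.0273), lost without model replicate 1 or 3 or combination replicate 1 or 2 (up to 0.0830, without combination replicate 2).

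At Stk19–Stk19-ps, a gene and its annotated pseudogene 191691 bases apart, reads may fit both copies, so the values are uncertain. The spanning sum was 23.5, 23.9 and 19.6 TPM in normal, 41.9, 36.9 and 44.7 in model and 20.1, 20.8 and 19.3 in combination. Model was higher than both others, by 0.85 over normal (SE 0.147, limma adjusted p = 0.0240), and combination was below model (-0.997, SE 0.147, adjusted p = 0.0242). The first call was lost in 5 of 6 fits without 1 library, all but that without model replicate 2 (up to 0.0900, without normal replicate 2), and the second without model replicate 3 or combination replicate 1 or 2 (up to 0.0649, without the last).

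At Pim2–Slc35a2 the whole locus changed while the spanning forms held a minor part of it. Pim2 is a survival kinase and Slc35a2 a UDP-galactose transporter, 302 bases apart, and the locus was at 71.1, 47.0 and 42.5 TPM in normal, 148.5, 168.3 and 288.1 in model and 75.9, 67.2 and 38.0 in combination. Model lay above both other groups, which overlapped. It rose by 1.87 (SE 0.326, limma adjusted p = 0.0219) in model and was lower by 1.72 (difference -1.72, SE 0.326, adjusted p = 0.0280) in combination than in model. The first call was lost without normal replicate 2 or 3 or model replicate 3 (up to 0.0896, without normal replicate 2), and the second without model replicate 3 or any 1 of the combination libraries (up to 0.0743, without model replicate 3). The spanning share was 23.8 ± 4.44% (SD, n = 3) in normal, 11.3 ± 1.63% in model and 22.9 ± 11.2% in combination.

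Small RNA genes inside or beside a host gene gave another kind of member; in those named here an exon of the host transcript runs across the small RNA. Of the 18 loci with names starting Snor, Mir or RNU, or U with digits, Eif4a1–SNORA48 had the change in share that passed. Other small RNA names, such as 7SK and SCARNA, were not in that list. Eif4a1 is the RNA helicase of translation initiation, and SNORA48 is a small nucleolar RNA coded inside it, covered whole by the spanning transcript. MSTRG.2835.1 stood at 28.3, 25.1 and 24.1 TPM in normal, 10.4, 9.06 and 21.7 in model and 32.7, 22.5 and 26.6 in combination. Model was lower than both others, which overlapped. Its share of the locus was 9.04%, 8.75% and 9.46% in normal, 4.63%, 4.04% and 5.31% in model and 15.8%, 14.5% and 16.8% in combination, and the groups did not overlap. On the log2 odds scale combination was above model by 1.87 (SE 0.200, limma adjusted p = 0.0272), lost in 5 of 6 fits without 1 library, all but that without model replicate 2 (up to 0.0910, without combination replicate 1), and the other comparisons had adjusted p of 0.163 and 0.230. Over the 18 loci the median log2 difference of the spanning sum was 0.20, 0.15 and 0.22. It was 0.05, 0.07 and 0.15 over the 439 spanning sums, and -0.01, 0.03 and 0.04 over everything in the fit. Of the 18 sums 1 was called, that of Tpd52l2–U1 (lower, combination against normal). In that comparison 1.84% were called lower over everything in the fit, and 0.911% of the 439 spanning sums. F2r–7SK, outside this list, had calls for its spanning level, given above.

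Tpd52l2 encodes a coiled-coil protein of the tumour protein D52 family, and the annotated U1 copy lies inside it. Its spanning transcript stood at 14.6, 13.7 and 11.7 TPM in normal, 6.01, 6.60 and 10.8 in model and 7.12, 6.57 and 5.23 in combination. Every normal library was above the other 6. Combination was below normal by 0.98 (difference -0.98, SE 0.224, limma adjusted p = 0.0466), lost in all 6 fits without 1 library (up to 0.150, without normal replicate 2). The spanning share was 41.5 ± 1.38% (SD, n = 3) in normal, 22.0 ± 6.18% in model and 18.7 ± 1.50% in combination, and the whole locus passed in none of the comparisons. The whole locus was called in 3 of the 18, all higher in combination than in normal, at Zfp445–U6, Nfkb1–U6 and Taf1–SNORA26, beside 2.73% called higher over all loci in that comparison.

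The spanned loci of most TPM were of other kinds, and 12 loci held 46.1% of all spanning TPM. They were led by the mitochondrial genome, whose genes are transcribed as one long RNA, at a mean of 862 TPM, with 159 to 3019 in single libraries. Next came Rplp2–LOC100911575 (588 TPM), LOC108349594–Chd2 (587 TPM) and LOC100364116–LOC100909911 (517 TPM). MHC class I genes of the RT1-CE group, the Ms4a cluster and the neighbouring Myl12a and Myl12b followed, which are families of similar copies. Their values are uncertain where reads fit several copies. MSTRG.10183.58, across RT1-CE1 and RT1-CE7, was also called between combination and normal, at 0.0212, 1.14 and 0.0671 TPM in normal, 4.87, 4.54 and 6.01 in model and 9.89, 6.35 and 5.91 in combination (log2 difference 2.63, SE 0.328, limma adjusted p = 0.0372). Every normal library was below the other 6. The call was lost without normal replicate 1 or 3 or combination replicate 1 or 2 (adjusted p up to 0.106, without combination replicate 1).

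Grk6–Prr7 and Psmb8–Tap2, pairs of distinct protein-coding genes, were also among the 12. Grk6, a kinase of G protein-coupled receptors, and Prr7, an adaptor found in T cells, were joined by 7 transcripts at 106.2, 113.2 and 105.9 TPM in normal, 88.8, 139.0 and 96.7 in model and 98.7, 108.2 and 73.4 in combination. The groups overlapped. The immunoproteasome subunit gene Psmb8 and the peptide transporter genes Tap1 and Tap2 were joined by 11 transcripts, at 79.0, 125.2 and 119.8 TPM in normal, 77.8, 89.4 and 68.0 in model and 137.6, 121.9 and 99.3 in combination. The combination libraries lay above all model libraries, and neither this nor another comparison passed.

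In 111 of the 516 loci (21.5%) the spanning forms held at least 50% of TPM, and in 25 at least 90%. The median share was 16.0%, and 17.3%, 16.3% and 18.6% for the means of the normal, model and combination groups. At loci of at least 10 TPM the highest shares were at Pde4d–AABR07008066.2 (99.8%), a cyclic AMP phosphodiesterase gene with a clone-style name, Trem1–Trem3 (99.4%), receptors of myeloid cells, and Tnpo2–Fbxw9 (99.3%), an import receptor and an F-box gene joined in 29 of 33 transcripts. At Map2k7–Tgfbr3l, a kinase of the JNK pathway and its neighbour, the share ranged from 97.4% to 98.5%. Its spanning TPM was 69.1, 69.9 and 59.3 in normal, 81.9, 76.6 and 90.8 in model and 96.8, 87.2 and 64.6 in combination. Every model library was above normal, and combination overlapped both. Of the 516 loci, 328 had more TPM in transcripts of the upstream gene alone than of the downstream gene alone.

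Levels of single spanning transcripts varied widely within groups. Of the 993 tested, 323 were listed at 0 in at least 1 library, and 187, 167 and 163 were at 0 in some but not all libraries of normal, model and combination. The median coefficient of variation of the spanning sum over 3 libraries was 20.8%, 33.7% and 25.8%, beside 11.5%, 21.6% and 17.9% for the whole of the same 439 loci. In 47 of the 439 the spanning share differed by at least 50 percentage points between libraries of 1 group. The members nearest the limits were AABR07036746.1–AC120727.1 and AABR07002775.1–AABR07071891.1 with an overlap of 100 bases, and 2 transcripts of Fbxo22–Ube2q2 with 99 bases lay just outside; loci at 1.19 and 1.57 TPM lay just inside the level limit and 1 at 0.372 just outside.

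Other features of the libraries moved with the groups. Aligned depth was 7.52 to 10.1 gigabases, with the 3 combination libraries at 7.52 to 8.12. All 8 listed T cell markers with transcripts in the tables, of 10, were present, with sums of 2202 to 2908 TPM in normal, 1633 to 2132 in model and 1980 to 2353 in combination. Sums of 7 monocyte markers were 29.1 to 181, 71.0 to 189 and 353 to 713 TPM, of 4 platelet markers 10.3 to 26.5, 17.9 to 32.2 and 66.3 to 107, and of 4 erythroid markers, of 6 listed, 58.9 to 1117, 2403 to 16174 and 260 to 862. The sum of 4 neutrophil markers was highest in normal, at 13.6 to 32.3 TPM, with 0.284 to 8.30 in model and 4.07 to 6.68 in combination. The sum of 8 cytotoxic and NK cell markers was 100.5 to 162 TPM in normal, 49.3 to 73.1 in model and 77.6 to 104.2 in combination, so that model lay below both other groups, which overlapped. The 5 B cell markers, at 22.3 to 176, 60.6 to 92.7 and 80.2 to 111.8 TPM, overlapped among all groups. Of these lists 2 had a gene at a spanned locus, Fcer1g (monocyte) and Itga2b (platelet), neither with a call, and the lists of other cells had no gene at 0 in all libraries. In such bulk RNA a change in the number of cells and in RNA per cell cannot be told apart, and the part of other cells in the differences above was not tested.

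Lrch4–Sap25 missed the threshold. Lrch4 encodes a leucine-rich repeat protein, and Sap25, 371 bases on, a subunit of the Sin3 corepressor complex. The spanning sum was 40.0, 45.7 and 44.8 TPM in normal, 16.4, 29.5 and 13.4 in model and 38.2, 52.9 and 28.8 in combination. Every model library was below normal, and combination overlapped both. The difference between model and normal was -1.18 (SE 0.296, limma adjusted p = 0.0543).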

How the data were processed

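The deposited tables list, for each transcript of 1 merged set, its exons with coverage, FPKM and TPM as text attributes (other values than a single number column), which the authors estimated with StringTie 1.3.3b, per the file headers. Reads were processed with bcl2fastq and HISAT2 on rn6, per the submitters' processing notes, and their versions, read length, strandedness and how the CD4+ cells were selected are not given in the sources used here. The combination tables carry other sample names in their headers than in the labels, whose groups were used.

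TPM was taken as deposited. Depth came from the ratio of coverage to FPKM, and without counts no counting intervals were made. Transcripts, locus sums and summed spanning TPM per locus with a mean of at least 1 TPM were tested over the whole table as log2(TPM + 1), and shares as log2 odds, with limma 3.58.1 in R 4.3.3 (1 coefficient per group, empirical Bayes with trend, Benjamini-Hochberg, threshold 0.05). A fold on this scale understates the change of low transcripts. The procedure was tested on simulated data. Loci were named by a rule: most spanning TPM, highest share, largest called changes, smallest p where under 3 passed, and genes of preset lists; part of these is printed. Members and lists were chosen with earlier results of these data known. The classes by coverage and by distance from annotated ends were added after the data were seen. Promoters and gene names came from RefSeq (GRCr8). Protein identity of neighbouring copies was not run, since protein sequences are not used here. Some results at spanned loci are not reported here.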

Additional observations from a re-analysis of the deposited data

How the results depend on the processing

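Counts of calls depended on the processing. Values follow the order model against normal, combination against model, combination against normal where 3 stand together. The share called over all features was not computed for these alternatives, so their counts are not read against it. Single spanning transcripts called in level numbered 1, 2 and 3. Model against normal gave 3 with a pseudocount of 0.1, 3 without a filter, 4 at a mean of at least 5 TPM, 8 with median-ratio scaling, 4 from the 2 groups alone and 0 with a replicate block. Combination against model gave 1 with a pseudocount of 5, 1 at a mean of at least 5 TPM, 5 with median-ratio scaling and 1 with the block, and combination against normal 1 with the block. Leaving out 1 library gave 1 to 31, 1 to 7 and 1 to 9. In share, called in 1, 2 and 2, model against normal gave 2 with a pseudocount of 0.1, 2 from the 2 groups alone and 0 with the block. Combination against model gave 1 with the block, and combination against normal 1 from the 2 groups alone and 1 with the block. Leaving out 1 library gave 0 to 4, 1 to 8 and 1 to 8. Where the block gave 0, limma gave 141 of the 993 level differences at an unadjusted p under 0.05 without it. Over all 36340 transcripts it gave 6196.

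Whole loci called, 27, 22 and 18, became 3, 7 and 4 without a filter, 56, 47 and 51 with median-ratio scaling, 7, 0 and 40 from the 2 groups alone, 10, 0 and 3 with the replicate block, and 0 to 97, 0 to 43 and 0 to 31 without 1 library. Summed spanning TPM, called at 19, 15 and 11 loci, became 5, 5 and 2 without a filter, 34, 38 and 36 with median-ratio scaling, 5, 3 and 27 from the 2 groups alone, 11, 1 and 3 with the block, and 1 to 61, 1 to 30 and 2 to 19 without 1 library. Among the fits without 1 library, the highest counts came without model replicate 2 or combination replicate 3. The other settings stayed within 1.5 times the reported counts. Labels with the same replicate number showed no sign of pairing the libraries. Same-number correlations of deviations ran from -0.024 to 0.0304, beside -0.0411 to 0.0325 for different numbers. Of 9 libraries, 4 matched best with their own number, so the block is not read as a pairing. A pairing that touches few transcripts would not show in these values. The difference in percent of TPM held by spanning transcripts, 0.0103 for model against normal, was -0.0195 at an overlap of 50 bases, -0.0422 at 200 bases, 0.0666 without haemoglobin, mitochondrial and ribosomal protein transcripts and between -0.0453 and 0.0387 without 1 library. Without the same transcripts, combination against model went from -0.0973 to 0.0707 and combination against normal from -0.0870 to 0.137. Both changed sign. Without 1 library they ran from -0.205 to -0.0163 and from -0.195 to -0.00596. The cause was not tested in any of these. Of 48 called results of named transcripts and loci, 2 passed under every alternative and 3 in every fit without 1 library, and none changed direction. The differences in percent of TPM above are not among the 48. Median-ratio scaling shifted the log2 differences of the spanning transcripts, their sums and the spanned loci by a median of at most 0.05. Without read counts, low transcripts cannot be given a counting error.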
